A study of Mus musculus with 8 samples.

Results

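The genes described here encode IL33, the IL1 family cytokines next to it, their receptors and the adaptor that the receptors share. They were taken as the rows of the count table whose symbol equals Il33, Il18, Il1a, Il1b, Il1rn, Il16, Il1rl1, Il1r1, Il1rap or Myd88. All 10 were found, each in 1 row, among 55471 genes, and 7 of them had enough reads to be among the 13818 genes tested.

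RNA was sequenced from SV-LECs, a mouse lymphatic endothelial line derived from adventitial tissue of the mesentery and immortalized with SV40, grown in DMEM with 10% FBS. In 4 libraries the cells had received no TGFβ1 and in the other 4 they had been kept with TGFβ1 at 10 ng/ml for 72 h. The study asked which secreted factors TGFβ1 induces in these cells. The samples are described as technical replicates of 1 line, so p-values measure the spread between technical samples. Libraries held 19182616 to 26077972 counts without TGFβ1 and 18952504 to 26386941 with it. Levels are given as CPM, the counts of a gene scaled to the normalized size of its library, on which 3 counts correspond to between 0.113 and 0.162 CPM.

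IL33 and IL1α are alarmins, cytokines made in advance by barrier and stromal cells and released when those cells are damaged, and IL33 is held in the nucleus until then. IL33 binds ST2, the product of Il1rl1, and IL1α and IL1β bind IL1R1. Both receptors recruit the accessory chain encoded by Il1rap and signal through MyD88 to NF-κB, and Il1rl1 also gives rise to a soluble decoy form of ST2. IL16 has no IL1 fold and is a chemoattractant that binds CD4.

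The label of the line was checked against marker genes. Prox1, the transcription factor that specifies lymphatic identity, had 0 counts in every untreated library and 0 to 2 counts in treated libraries. The lymphatic hyaluronan receptor Lyve1 had 0 to 3 counts, the endothelial adhesion genes Pecam1 and Cdh5 had at most 5 and at most 2, and Ccl21a and Tie1 had 0 in all 8. The lymphatic genes Pdpn, at 341 ± 19.5 CPM (SD, n = 4), and Flt4, at 21.6 ± 1.23 CPM, were present in untreated cells. Prox1, Lyve1, Pecam1, Cdh5, Ccl21a and Tie1 were thus absent or near 0, which for these genes goes against the label, while Pdpn and Flt4 were present. SV-LEC is used only as the name of the line. Of 15 endothelial markers, 7 had at most 3 counts everywhere and 6, Pdpn and Flt4 among them, had enough reads to be tested, so the list was mixed. The summed level of the list was 487 to 518 CPM without TGFβ1 and 590 to 602 CPM with it. Fibroblast and mural markers summed to 3554 to 4906 CPM and 6617 to 7717 CPM, with Acta2, the smooth muscle actin gene, at 264 ± 9.91 and 980 ± 38.3 CPM and the fibroblast gene Dcn at 311 ± 11.7 and 82.9 ± 6.47 CPM. Epithelial markers summed to 34.2 to 40.6 CPM and 38.2 to 45.2 CPM. The leukocyte markers summed to 6.21 to 8.29 CPM and 16.6 to 19.2 CPM. Ptprc, the pan-leukocyte gene CD45, had at most 1 count, and 10 of the 13 leukocyte markers had at most 3 counts in every library. The part of these marker changes in the results below was not tested.

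Of the 7 tested genes, 2 rose and 4 fell at a false discovery rate (FDR) under 0.05 in edgeR's likelihood ratio test, and Il1rap did not pass. Among all genes tested, 37.6% were called higher and 38.0% lower, 75.6% in all, so 6 of 7 is near the background. The 4 untreated and 4 treated values did not overlap for those 6 genes, as for 69.8% of all genes tested, 34.7% with higher and 35.1% with lower treated values. Il33 and Il16 fell by at least 2-fold, as did 6.56% of all genes tested. The median log2 fold change of the 7 was -0.37, against -0.01 for all genes tested.

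**Figure D1:**
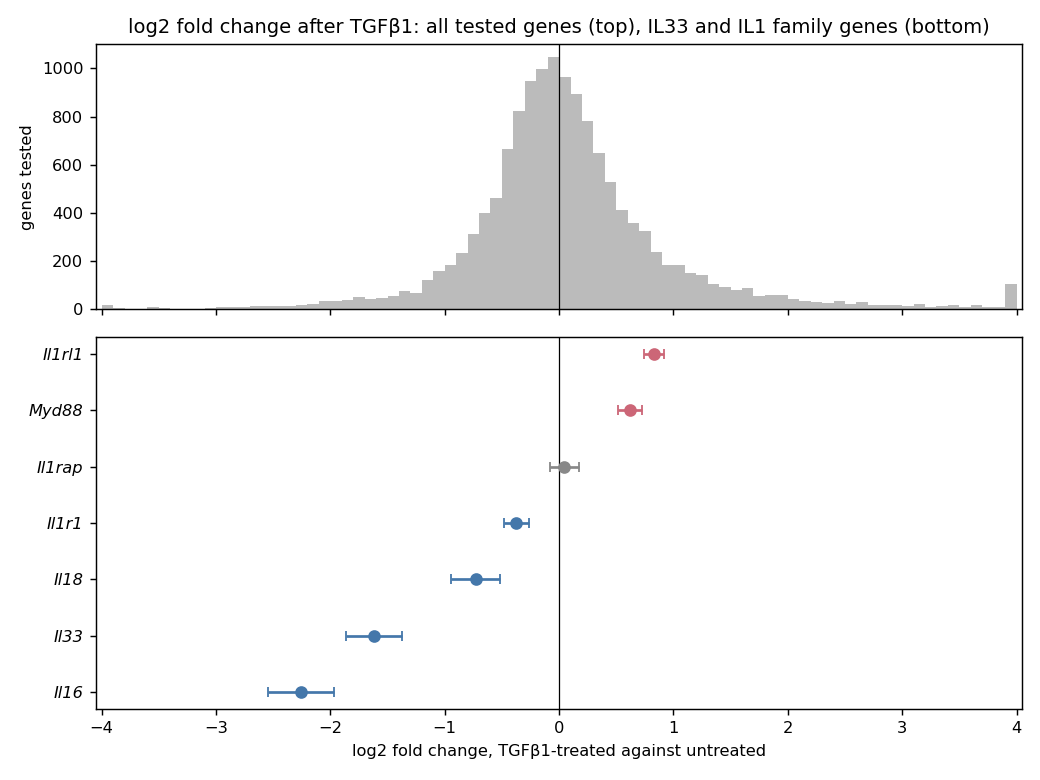
The upper panel counts the 13818 tested genes by log2 fold change after TGFβ1 in bins of equal width, with values beyond the axis in the end bins, and the lower panel shows the 7 tested genes with 95% confidence intervals. Il16, Il33, Il18 and Il1r1 (blue) lie below 0, Myd88 and Il1rl1 (red) above, and the interval of Il1rap (grey) includes 0.

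Il33 and Il1rl1 each have a pair of start sites with a RefSeq promoter listed on GRCm38.p6. The gene-level counts pool reads from both starts, so the windows show what each count combines. The windows run from 250 bases before the start, in lower case, through the 50 bases from the start on, in capitals, read 5′ to 3′ on the gene's strand. The Il16 window is shown because it holds the letters of an NF-κB motif.
Il33, upstream start, chr19:29924863-29925162, + strand: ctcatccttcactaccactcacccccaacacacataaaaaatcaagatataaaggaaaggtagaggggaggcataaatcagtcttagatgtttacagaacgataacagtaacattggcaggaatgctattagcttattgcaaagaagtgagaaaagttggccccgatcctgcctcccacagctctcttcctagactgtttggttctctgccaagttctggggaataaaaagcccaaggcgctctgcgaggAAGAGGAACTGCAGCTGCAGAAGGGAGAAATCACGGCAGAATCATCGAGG
Il33, downstream start, chr19:29945540-29945839, + strand: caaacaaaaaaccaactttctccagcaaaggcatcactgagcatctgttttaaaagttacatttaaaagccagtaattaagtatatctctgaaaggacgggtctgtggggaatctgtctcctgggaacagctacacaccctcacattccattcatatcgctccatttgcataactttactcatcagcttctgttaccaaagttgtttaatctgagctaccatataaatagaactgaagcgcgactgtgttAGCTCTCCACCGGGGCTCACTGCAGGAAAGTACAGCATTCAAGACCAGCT
Il1rl1, upstream start, chr1:40429320-40429619, + strand: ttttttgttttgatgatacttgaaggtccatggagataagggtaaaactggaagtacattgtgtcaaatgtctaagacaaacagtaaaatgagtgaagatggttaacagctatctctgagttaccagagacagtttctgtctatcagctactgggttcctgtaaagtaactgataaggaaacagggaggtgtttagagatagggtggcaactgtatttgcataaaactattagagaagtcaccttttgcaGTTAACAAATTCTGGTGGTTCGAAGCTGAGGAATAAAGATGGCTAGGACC
Il1rl1, downstream start, chr1:40439379-40439678, + strand: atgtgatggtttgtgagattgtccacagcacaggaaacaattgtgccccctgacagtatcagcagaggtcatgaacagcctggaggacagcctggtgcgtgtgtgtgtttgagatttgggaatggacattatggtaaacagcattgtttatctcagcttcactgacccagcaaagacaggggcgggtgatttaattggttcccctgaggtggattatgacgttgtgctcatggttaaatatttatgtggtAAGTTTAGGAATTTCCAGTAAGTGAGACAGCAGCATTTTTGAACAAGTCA
Il16, innermost start, chr7:83655446-83655745, - strand: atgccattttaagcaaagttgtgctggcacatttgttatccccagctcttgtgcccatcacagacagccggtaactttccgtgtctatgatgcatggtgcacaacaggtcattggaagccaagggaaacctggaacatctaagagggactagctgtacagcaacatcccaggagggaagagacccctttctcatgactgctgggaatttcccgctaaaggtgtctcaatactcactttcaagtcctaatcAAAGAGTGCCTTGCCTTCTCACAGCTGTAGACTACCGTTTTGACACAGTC

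The 10 genes have 17 such windows, and 4 motifs were searched on both strands. The AP-1 letters TGANTCA were in 3 of 17 windows and in 7.81% of 32851 windows of the same length, in Il1rn, Il1a and the outermost Il16 window at position -18. An NF-κB motif, GGG and TTTCC spaced 2 bases apart, was in 3 of 17 and in 1.63% of all, in the printed Il16 window and in a pair of Il1rn windows that overlap and hold the same site, so the 3 windows hold 2 distinct sites. In Il16, GGGAATTTCC lies at -49 from the start. The interferon-response core, GAAA repeated after a gap of 2 bases, was in 2 of 17, in Myd88 and Il1rap, and in 3.44% of all, and the SMAD palindrome GTCTAGAC was in 0 of 17 and in 0.213%. None of the 4 motifs was in the Il33 or Il1rl1 windows. These are matches of letters only.

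Il33 (ENSMUSG00000024810, chromosome 19, 29925114 to 29960718, + strand) was at 14.7, 19.4, 14.5 and 14.0 CPM in untreated libraries 1 to 4 and at 5.08, 5.40, 5.11 and 4.88 CPM in treated libraries. Every treated library was below every untreated one, and untreated library 2 stood above the other three. The fall was 3.07-fold, with a log2 fold change of -1.62 (SE 0.126, edgeR FDR 1.86e-37), and without untreated library 2 it was -1.50. Of all genes tested, 2.61% had a lower log2 fold change. In bulk RNA, fewer cells of a type and less RNA per cell cannot be told apart.

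Il18 (ENSMUSG00000039217, chromosome 9, 50554827 to 50581840, + strand), whose product is cleaved by caspase-1 and induces interferon-γ, was at 7.32, 7.02, 7.29 and 7.30 CPM and then at 4.70, 4.52, 4.28 and 3.99 CPM. The untreated libraries lay close together and all treated libraries were below them. Il18 fell by 0.73 on the log2 scale (SE 0.108, edgeR FDR 2.59e-11), which is 1.66-fold lower.

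Il1a (ENSMUSG00000027399), the alarmin that binds IL1R1, had 1, 1, 4 and 2 counts without TGFβ1 and 2, 1, 2 and 1 with it. Il1b (ENSMUSG00000027398), the inducible IL1 cytokine, had 0 counts in 7 libraries and 1 count in treated library 4. Il1rn (ENSMUSG00000026981), which encodes the antagonist that blocks IL1R1, had 1, 2, 2 and 2 counts and then 1, 0, 0 and 0. These 3 genes lay at or near the limit of 3 counts and were not tested, and a difference was not detectable at this depth. Fitted without the filter on low counts, Il1rn had an edgeR FDR of 0.0614. Of 5 other IL1 family ligand genes, 4 were matched, Il36a, Il36b, Il36g and Il1f10, and all 4 had 0 counts in all 8 libraries.

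Il16 (ENSMUSG00000001741, chromosome 7, 83642825 to 83745726, - strand) was at 9.10, 9.01, 8.99 and 10.2 CPM in untreated and at 2.38, 1.56, 2.41 and 1.55 CPM in treated libraries. The groups lay far apart, with untreated library 4 the highest. Il16 fell by 2.26 on the log2 scale (SE 0.146, edgeR FDR 2.55e-60), or 4.78-fold, and 1.03% of tested genes had a lower value. Of its 75-base stretches, 14.5% lie opposite exons of other genes, mainly Stard5, which itself went from 38.8 ± 2.29 to 19.4 ± 0.853 CPM. Whether the counting used strand is not given in the sources used here, so how reads of that overlap were assigned is not known. Of the IL16-binding proteins, Cd9 fell from 91.2 ± 4.61 to 78.7 ± 1.24 CPM (log2 fold change -0.21, edgeR FDR 2.41e-05), and Cd4 had 0 counts in untreated libraries and 0 to 2 in treated ones.

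**Figure D2:**
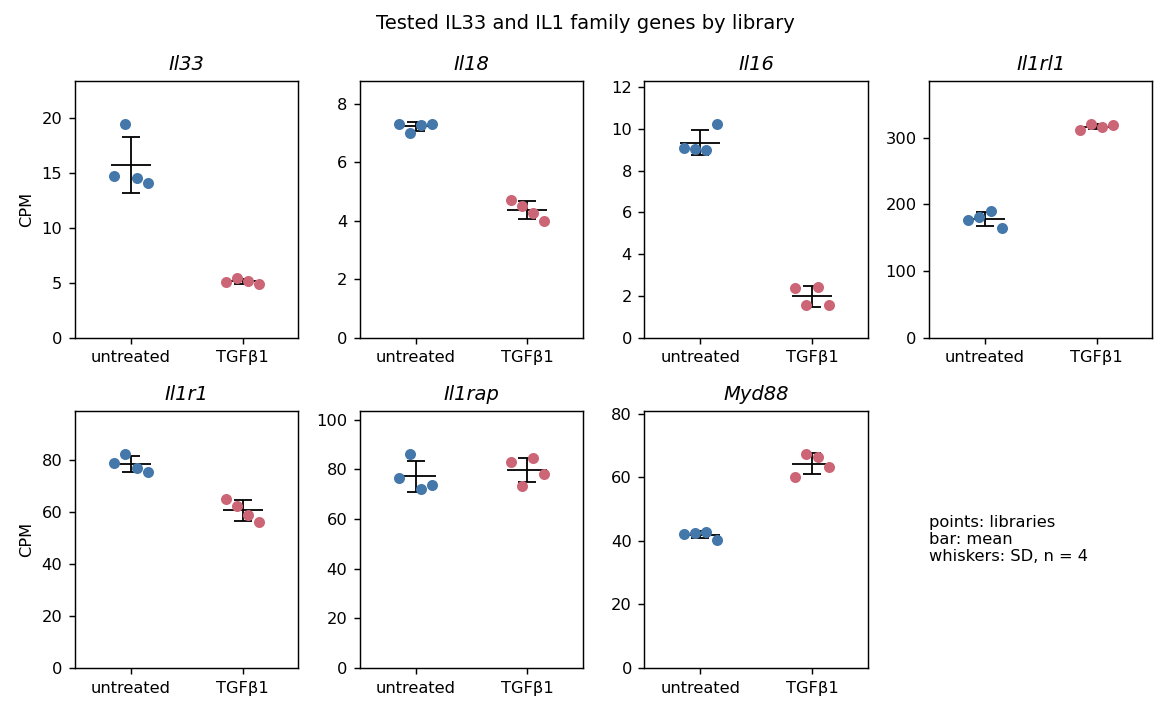
Each panel plots the CPM of 1 tested gene in the 4 untreated (blue) and 4 TGFβ1-treated (red) libraries on an axis from 0, with the mean and SD. Il33, Il18, Il16 and Il1r1 are lower in every treated library, Il1rl1 and Myd88 are higher in every treated library, and the Il1rap values overlap.

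Il1rl1 (ENSMUSG00000026069, chromosome 1, 40429570 to 40465415, + strand), the receptor of IL33, was at 177, 181, 190 and 165 CPM without TGFβ1 and at 312, 321, 316 and 318 CPM with it. All 4 treated libraries were above all untreated libraries and closer to each other. Il1rl1 rose 1.78-fold (log2 fold change 0.83, SE 0.0458, edgeR FDR 1.63e-71). Counts per gene do not separate the membrane form from the soluble decoy.

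The ligand and its receptor moved in opposite directions. Per kb of exon, Il1rl1 was at 5.03, 3.90, 5.48 and 4.91 times the level of Il33 in untreated libraries and at 25.7, 24.9, 25.9 and 27.3 times in treated ones. The ratio was 4.83 ± 0.666 (SD, n = 4) and 25.9 ± 0.996. Because Il33 fell and Il1rl1 rose, both without overlap, the ratios could not overlap either and add no separate evidence.

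Il1r1 (ENSMUSG00000026072, chromosome 1, 40225080 to 40317257, + strand), the signalling receptor of IL1α and IL1β, was at 78.7, 82.2, 76.9 and 75.2 CPM and then at 64.9, 62.2, 58.9 and 56.0 CPM. The lowest untreated library was above the highest treated one. Il1r1 fell by 0.37 on the log2 scale (SE 0.0555, edgeR FDR 4.56e-11), a 1.30-fold difference.

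Il1rap (ENSMUSG00000022514, chromosome 16, 26581704 to 26730117, + strand), the chain that both receptors share, was at 76.6, 86.2, 72.0 and 73.8 CPM without and at 82.9, 73.4, 84.4 and 78.0 CPM with TGFβ1. The groups overlapped, and the log2 fold change of 0.05 had a 95% confidence interval from -0.08 to 0.17 (edgeR FDR 0.525). Il1rl1 per kb was 3.82 ± 0.374 times Il1rap in untreated and 6.57 ± 0.491 times in treated libraries.

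Per kb of exon, the untreated order of level was Il1rl1 at 25.8, Myd88 at 16.3, Il1r1 at 12.3, Il18 at 7.01, Il1rap at 6.79, Il33 at 5.43 and Il16 at 1.19 CPM per kb. Il18 (SD 0.138) and Il1rap (SD 0.556) did not differ beyond their spread. After TGFβ1 the order was Il1rl1 at 45.9, Myd88 at 25.0, Il1r1 at 9.51, Il1rap at 7.01, Il18 at 4.24, Il33 at 1.77 and Il16 at 0.251 CPM per kb.

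Il1r1 and Il1rl1 lie in a row of 6 receptor genes that spans 477.627 kb of chromosome 1, of which 4 were tested. Il1rl2, the IL36 receptor, fell from 52.3 ± 1.11 to 45.4 ± 1.21 CPM (log2 fold change -0.20, edgeR FDR 4.51e-05). Il18rap, the accessory chain of the IL18 receptor, rose from 20.7 ± 0.271 to 39.2 ± 1.96 CPM (log2 fold change 0.92, edgeR FDR 1.63e-54). Il18r1, which binds IL18, had 2 to 7 counts untreated and 3 to 4 treated, and the decoy receptor Il1r2 had 4 to 12 and 2 to 8. Neighbours in the row thus moved in both directions.

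**Figure D3:**
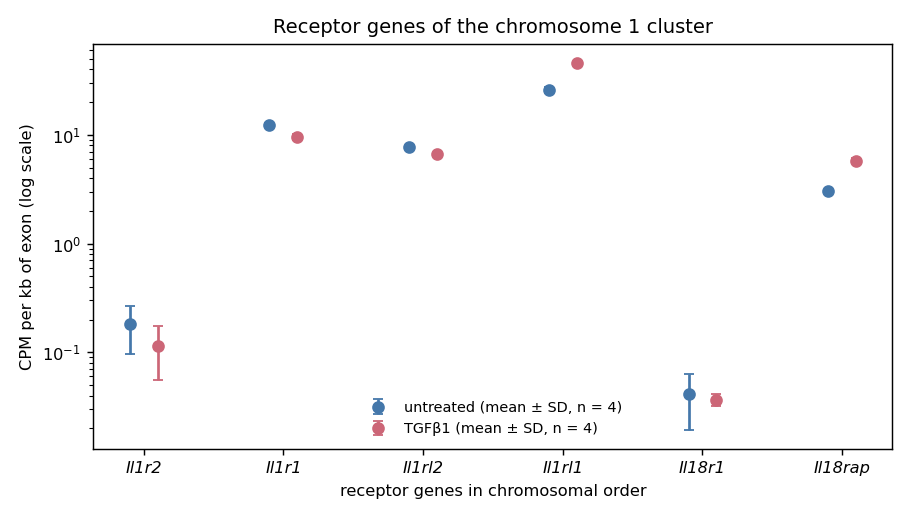
The CPM per kb of exon of 6 receptor genes, in their order on chromosome 1, is plotted on a log axis as the mean and SD of 4 untreated (blue) and 4 TGFβ1-treated (red) libraries. Il1r1 and Il1rl2 are lower and Il1rl1 and Il18rap higher after TGFβ1, while Il1r2 and Il18r1 are near the detection limit in both groups.

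Myd88 (ENSMUSG00000032508, chromosome 9, 119335934 to 119341411, - strand), the adaptor below these receptors, was at 42.1, 42.5, 42.7 and 40.3 CPM without TGFβ1 and at 60.1, 67.3, 66.5 and 63.3 CPM with it. All treated libraries were above all untreated ones. Myd88 rose 1.53-fold (log2 fold change 0.62, SE 0.0532, edgeR FDR 2.16e-30). The exact two-sided permutation test of the difference in mean log2 CPM gave p = 0.0286, the smallest p that 4 against 4 libraries allow, for Il33, Il18, Il16, Il1rl1, Il1r1 and Myd88, and p = 0.6 for Il1rap. Groups that do not overlap always give p = 0.0286 in this permutation test, and 69.8% of all genes tested did not overlap. The same exact test gave p = 0.8 for Il1a and p = 0.0571 for Il1rn. For Il1b, with 1 count in treated library 4 only, every arrangement gives the same absolute difference, so this test cannot decide.

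The remaining receptors and binding proteins of the family numbered 8, of which 4 were tested. Of the 4, 3 rose and 1 fell, against 37.6% higher and 38.0% lower among all genes tested. When the cut on low counts was raised to 1 CPM, Sigirr lay below it and 2 genes rose. Besides Il18rap, Sigirr, a receptor that dampens IL1 and Toll-like signalling, rose from 0.161 ± 0.0521 to 0.629 ± 0.123 CPM (log2 fold change 1.87, SE 0.428). Untreated libraries held 2 to 6 counts of Sigirr, near the level of 3 counts, so the size of its rise is uncertain. Treated libraries held 11 to 15, and Sigirr passed the filter on low counts through these libraries only. Il18bp, the secreted protein that captures IL18, rose from 1.14 ± 0.169 to 2.43 ± 0.381 CPM (log2 fold change 1.10). The median log2 fold change of the 4, Sigirr included, was 1.01.

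Below MyD88, 25 genes of the signalling pathway were tested, of which 8 rose, 9 fell and 8 did not pass, with a median of 0.01. These counts are near the background of 37.6% higher and 38.0% lower among all genes tested. Tnfaip3, the A20 gene that shuts off NF-κB signalling, rose from 29.7 ± 1.87 to 83.1 ± 5.68 CPM (log2 fold change 1.48, edgeR FDR 2.98e-115), and the kinase gene Irak2 rose from 31.6 ± 1.45 to 59.1 ± 1.49 CPM. Chuk, which encodes IKKα, had a log2 fold change of 0.49. Irak3, an inhibitory member of the kinase family, fell from 13.4 ± 0.969 to 8.56 ± 0.318 CPM (log2 fold change -0.64, edgeR FDR 1.05e-12). The TAK1-binding genes Tab1 and Tab2 fell by 0.63 and 0.45 on the log2 scale. Traf6, the ubiquitin ligase next to the IRAK kinases, fell by 0.21 with overlapping libraries, and Irak1 and Irak4 had log2 fold changes of -0.07 and 0.04 that did not pass.

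Genes that process or release the cytokines numbered 18 in the table, of which 10 were tested. Of the 10, 4 rose, 3 fell and 3 did not pass, against 37.6% higher and 38.0% lower among all genes tested. Capn1, a calpain gene named after its values were seen, had the highest FDR of the 4 (log2 fold change 0.12, edgeR FDR 0.0316) and did not pass in 7 of 16 alternatives. S100a13, involved in IL1α export, rose from 9.05 ± 0.866 to 14.7 ± 0.666 CPM, and Capn2, another calpain gene, rose from 366 ± 10.2 to 449 ± 9.94 CPM. Pycard, the inflammasome adaptor, fell from 0.820 ± 0.253 to 0.189 ± 0.0709 CPM, which is near the level of 3 counts. Casp4 fell by 0.22 on the log2 scale. Casp1, the protease that matures IL1β and IL18, had 2 to 3 counts and then 0 to 1, without overlap, and was not tested. Fitted without the filter on low counts, Casp1 had an edgeR FDR of 0.00602, and no fold is given because both groups were at or under 3 counts.

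**Figure D4:**
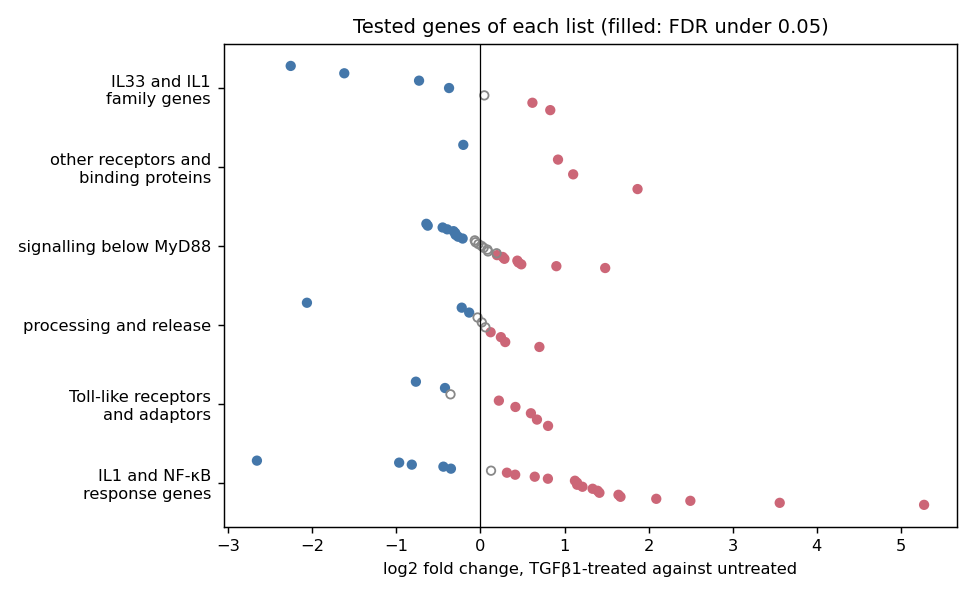
Each point is a tested gene placed by its log2 fold change after TGFβ1, grouped by gene list from top to bottom, with filled points (blue lower, red higher) for an FDR under 0.05 and open points otherwise. The IL33 and IL1 family genes and the signalling genes fall on both sides of 0. To the right as filled points lie 17 of the 23 tested response genes, against 37.6% of all genes tested called higher.

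Of 25 genes known to be induced by IL1 and NF-κB in many cells, 23 were tested, 17 rose, 5 fell and 1 did not pass, with a median of 1.15. Mmp9, a gelatinase gene, rose from 0.420 ± 0.171 to 16.9 ± 2.52 CPM (log2 fold change 5.28, edgeR FDR 5.78e-159). Ptgs2, which encodes cyclooxygenase-2, rose from 270 ± 35.5 to 1526 ± 47.8 CPM. Csf2, the GM-CSF gene, had 0 to 2 counts and then 11 to 22, at least 5.24-fold higher against the mean level of 3 counts per library. Csf2 passed the filter on low counts through its treated libraries only. Saa3, an acute phase gene, fell from 670 ± 60.7 to 106 ± 12.0 CPM (log2 fold change -2.66), and the chemokine genes Cxcl5 and Ccl20 fell by 0.97 and 0.82 on the log2 scale. Without treated library 2 or 4, Cxcl10 and Lcn2 no longer passed and 3 genes of the list fell.

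The genes whose levels over the 8 libraries ran closest to Il33, by the root mean square difference of centred log2 CPM, were Rspo3 (0.0949), Ak5 (0.105) and Tbc1d31 (0.105). Rspo3, Ak5 and Tbc1d31 had log2 fold changes of -1.73, -1.66 and -1.52, against -1.62 for Il33. Between groups this far apart, the measure follows mainly the size of the group difference, and shared regulation was not tested. Closest to Il16 were Grem1 (0.133), Ddc (0.168) and the row named Il4i1,Il4i1b (0.173). Grem1 had a log2 fold change of -2.30, and Ddc and Il4i1,Il4i1b were low after TGFβ1, at 0.615 and 0.205 CPM.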

How the data were processed

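Poly(A) RNA of 8 SV-LEC samples was sequenced by the authors as single reads of 75 bases from stranded libraries. The authors deposited raw counts of reads per gene on GRCm38, and the submitters' processing notes name bcl2fastq 2.20.0.422, STAR 2.7.3a and featureCounts 1.5.1. The strand setting and annotation release are not given in the sources used here.

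Groups and replicate numbers came from the sample titles, and no batch was labelled. Counts were analysed with edgeR 4.0.16 in R 4.3.3: filterByExpr, TMM, glmFit and glmLRT, the test named in the study's methods, with FDRs over 13818 genes and a threshold of 0.05. CPM used TMM library sizes. Exon lengths and positions came from GENCODE M21, and promoters from RefSeq on GRCm38.p6. Within groups, chi-square per degree of freedom between libraries was 2.37 to 7.84, so none was a repeat deposit. The scripts were tested on simulated data.

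The 10 genes and the pathway lists were chosen with earlier results of these data known. Named genes were the 10, up to 3 per direction with the largest change in each list, direct partners, and the 3 closest patterns to Il33 and Il16. Of 151 listed genes, 148 were matched, 3 of them by Entrez identifier, and Il36rn, Peli2 and Nlrp1b were not analysed here. Some results that the rule would name are not reported here. Floors of 3 counts cover counting error only. Alternatives were the quasi-likelihood test, DESeq2 1.42.0, other scalings, filters and prior counts, an FDR of 0.01, a replicate block and leaving out each library.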

Additional observations from a re-analysis of the deposited data

Results flagged for a closer look

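Of 72 groups of 4 libraries examined for 36 named genes, 8 held a library whose gap to the nearest other library passed Dixon's 95% critical value. Chance flags about 1 group in 20. Untreated library 2 was the highest for Il33, at 19.4 CPM against 14.0 to 14.7, and the lowest for Il18, at 7.02 CPM against 7.29 to 7.32. Untreated library 4 was the highest for Il16 at 10.2 CPM against 8.99 to 9.10, for Irak2 at 33.8 against 30.7 to 31.0, for Tlr4 at 47.0 against 40.7 to 41.7 and for Saa3 at 761 against 629 to 647. Treated library 2 was the highest for Chuk, at 186 CPM against 176 to 177. Treated library 1 was the highest for Sigirr, at 0.810 CPM against 0.541 to 0.584.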

How the results depend on the processing

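Of 182 values of single genes recomputed under an alternative, 180 kept their direction and, where tested, their side of the threshold, and the quasi-likelihood test also called 6 of the 7 tested genes. Of 258 counts of called genes, 229 were equal to the reported count and 29 differed. The Toll-like genes that rose numbered 4 instead of 5 in 9 of 16 alternatives, the processing and release genes that rose 3 instead of 4 in 6, and those that fell 2 to 4. The response genes that rose numbered 15 to 18. Scaling by total counts without composition factors moved the median log2 fold change of all genes to -0.07 and turned Il1rap to -0.022 (edgeR FDR 0.768), and its difference in mean log2 CPM to -0.019, and the cause was not tested. The number of response genes that fell ranged from 3 to 5 when a library was left out. Leaving out 1 library gave Il33 -1.67 to -1.50, Il16 -2.37 to -2.14 and Il1rl1 0.79 to 0.86. Same-numbered libraries did not deviate together (r from -0.19 to -0.03), and the replicate block gave -1.61 for Il33, -2.26 for Il16, 0.83 for Il1rl1 and the same 2 higher and 4 lower calls. Depth limits Il1a, Il1b and Il1rn, which lay near 3 counts.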

Other observations

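MyD88 also serves the Toll-like receptors, of which 12 genes with their adaptors were listed and 8 tested. Of these, 5 rose, 2 fell and 1 did not pass in edgeR's likelihood ratio test, with a median log2 fold change of 0.32. Over all genes tested, 37.6% were called higher and 38.0% lower. Of the 5 Toll-like genes that rose, Tlr2, named after its values were seen, had a log2 fold change of 0.22 (edgeR FDR 0.027). It did not pass in 9 of 16 alternatives, which leave 4 that rose. Tlr3, the receptor of double-stranded RNA, rose from 22.5 ± 2.18 to 39.3 ± 4.31 CPM (SD, n = 4), and its adaptor gene Ticam1 rose from 16.0 ± 1.33 to 25.5 ± 1.62 CPM. Tlr6 rose from 1.19 ± 0.225 to 1.81 ± 0.177 CPM. Tlr4, the receptor of lipopolysaccharide, fell from 42.6 ± 2.96 to 25.0 ± 1.62 CPM (log2 fold change -0.77), and the flagellin receptor gene Tlr5 fell from 6.37 ± 0.354 to 4.77 ± 0.570 CPM.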
